A study of Mus musculus with 8 samples.

Results

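The transcription factor genes Gsc, Foxa2, Eomes, T, Mixl1, Lhx1, Sp5, Evx1 and Mesp1, together with Cyp26a1, were followed across mouse pluripotent stem cell arrays. The first 9 encode transcription factors of the organiser, the primitive streak and the mesendoderm, while Cyp26a1 encodes an enzyme that degrades retinoic acid and is not a transcription factor. These 10 genes, of 20970 named genes on the array, were selected on their measured levels on the ESC, OSKH and OSK arrays, with the differences between those arrays already known, so their levels and differences are given as a description with no test. They were represented by 12 probes, with 1 probe each for 8 genes and 2 probes each for Foxa2 and Eomes. A probe was tested only where at least 3 of the 8 arrays measured it well above background. Of the 10 genes, 8 passed that filter, and Mixl1 and Mesp1, each well above background on OSKH 4 alone, did not.

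The study compared undifferentiated mouse cells of the C57BL/6J strain on 8 one-colour Agilent expression arrays, with 1 RNA sample on each. There were 4 arrays of induced pluripotent stem cells (iPSCs) labelled OSKH, 3 arrays of iPSCs labelled OSK, which the series names as its control group, and 1 array of the embryonic stem cell (ESC) line B6J-23. OSK is taken to stand for the reprogramming factors Oct4, Sox2 and Klf4, and the H for the oocyte linker histone H1foo, although the labels spell out neither. The labels do not give the source cells, the delivery of the factors, the culture medium or the age of the lines, nor whether arrays of a group came from separate lines, clones or cultures, so the spread between arrays of a group may be technical. The ESC group has no replicate.

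In the gastrulating embryo, Nodal and Wnt signals induce the primitive streak, through which epiblast cells leave to form mesoderm and definitive endoderm. Eomes, T and Mixl1 mark cells entering the streak, while Gsc, Foxa2 and Lhx1 mark its anterior end, the organiser, and the cells that leave it. Pluripotent cells in culture are derived from, or resemble, cells of stages before this step.

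All 8 arrays lay on 1 slide and carried 1 scan time. Slide row 1 held ESC and OSKH 1 to 3, and row 2 held OSKH 4 and OSK 1 to 3. ESC and OSKH 4 shared slide column 1, and OSKH and OSK arrays of the same number, 1 to 3, shared columns 2 to 4. The share of probes well above background ran from 51.4% to 59.0%, and no probe was saturated. A level is the log2 of a signal over the 75th percentile of its array, so 0 stands for a signal equal to that percentile. Levels of single genes are compared between arrays for 1 probe at a time and not between genes. Summed signals of marker lists add the brightest probe of each gene on an array, so bright probes weigh most. All 12 pluripotency markers examined, among them Pou5f1 and Nanog, were well above background on all 8 arrays, and their summed signal ran from 639 to 931 times the 75th percentile, with 707 on OSKH 4 and 856 on ESC.

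The promoters of the genes were searched for 5 kinds of site, as planned. The 250 bases before the transcription start were taken from RefSeq (GRCm38.p6), which held 11 promoters of 9 of the genes, and Mixl1 was not among them. The 5 kinds of site were searched for on both strands, and none of the matches overlapped. The TCF/LEF site CTTTGAT, which the DNA-binding partners of beta-catenin recognise in Wnt signalling, was found in the promoters of Sp5 and Mesp1 and in 3.21% of all 32851 promoters. The T-box core site AGGTGTG was found in those of Evx1 and Cyp26a1 and in 5.1% of all promoters. A DR5 retinoic acid element, a direct repeat that retinoic acid receptors bind, was found in that of Cyp26a1 and in 0.0883% of all promoters. The FOXH1 site TGTGNATT (3.18% of all promoters) and the Goosecoid/Otx site TAATCC (6.25%) were in none of the 11. A match is a description of letters and says nothing of binding.

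The promoters with a match are printed 5′ to 3′ on the strand of the gene, with the match in capitals, and that of Gsc is added as an organiser gene without any match. The Sp5 promoter lies at chr2:70474673-70474922 on the plus strand, with the TCF/LEF match beginning 104 bases before the start.
Sp5: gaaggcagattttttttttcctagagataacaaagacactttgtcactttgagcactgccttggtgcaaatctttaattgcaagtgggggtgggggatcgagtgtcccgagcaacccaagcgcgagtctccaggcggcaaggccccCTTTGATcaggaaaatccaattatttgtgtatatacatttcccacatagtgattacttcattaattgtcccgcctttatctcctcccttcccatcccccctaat
The Mesp1 promoter lies at chr7:79793591-79793840 on the minus strand, with the TCF/LEF match beginning 31 bases before the start.
Mesp1: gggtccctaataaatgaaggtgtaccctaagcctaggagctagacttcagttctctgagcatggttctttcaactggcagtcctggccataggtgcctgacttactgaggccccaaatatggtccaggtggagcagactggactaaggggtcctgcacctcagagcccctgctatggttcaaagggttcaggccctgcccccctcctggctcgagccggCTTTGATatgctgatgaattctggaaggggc
The Evx1 promoter lies at chr6:52313248-52313497 on the plus strand, with the T-box match, in reverse complement, beginning 39 bases before the start.
Evx1: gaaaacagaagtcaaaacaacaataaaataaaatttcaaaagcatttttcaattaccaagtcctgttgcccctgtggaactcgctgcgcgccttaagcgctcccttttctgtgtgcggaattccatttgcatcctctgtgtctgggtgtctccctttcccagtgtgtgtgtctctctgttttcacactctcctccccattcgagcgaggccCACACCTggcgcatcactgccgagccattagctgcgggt
The Cyp26a1 promoter lies at chr19:37697558-37697807 on the plus strand. The T-box match begins 203 bases and the DR5 match 32 bases before the start used, both in reverse complement. The gene as a whole is listed from chr19:37697738, so the end of this stretch, with the DR5 match, lies within it.
Cyp26a1: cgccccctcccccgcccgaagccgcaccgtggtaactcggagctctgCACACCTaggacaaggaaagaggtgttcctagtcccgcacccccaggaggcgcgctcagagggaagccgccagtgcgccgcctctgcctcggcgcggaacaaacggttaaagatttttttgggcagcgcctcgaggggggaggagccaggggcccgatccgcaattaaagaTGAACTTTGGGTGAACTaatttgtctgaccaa
The Gsc promoter lies at chr12:104473237-104473486 on the minus strand.
Gsc: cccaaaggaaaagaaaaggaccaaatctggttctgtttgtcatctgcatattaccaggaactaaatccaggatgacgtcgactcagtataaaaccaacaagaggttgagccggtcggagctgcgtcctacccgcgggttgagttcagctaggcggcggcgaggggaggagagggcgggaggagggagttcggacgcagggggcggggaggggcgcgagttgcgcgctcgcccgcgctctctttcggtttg

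A single array stood highest for the whole set. OSKH 4 had the highest level of all 8 arrays for 10 of 10 genes, and the ESC array came second for 8 of them. Among all 22685 tested features, OSKH 4 was the highest array for 11.1%. It exceeded the next array by at least 1 log2 unit for 0.904% of features and by at least 2 log2 units for 0.225%, and by at least 2 for all 8 tested genes, whose next array, ESC, was well above background. OSKH 4 and ESC were together the highest pair for those 8 genes and for 4.73% of features. For Mixl1 and Mesp1 no second array was measured. Those arrays shared slide column 1, so the column and the samples on it cannot be told apart. Because these contrasts chose the genes, nothing is read from these counts. In whole-culture RNA, fewer cells expressing a gene and less RNA per cell cannot be told apart.

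**Figure D1:**
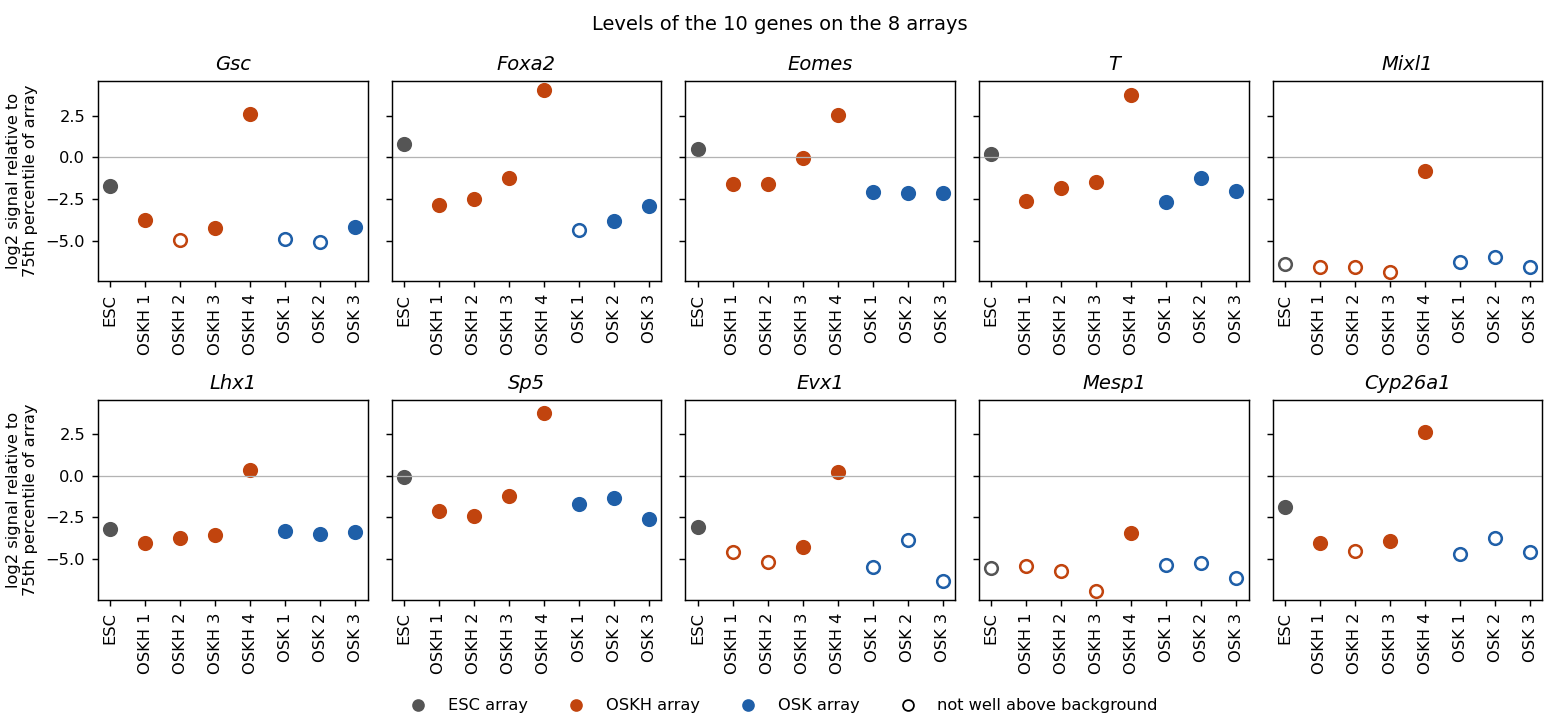
Levels of the 10 genes on the 8 arrays, as log2 signal over the array's 75th percentile (y axis), 1 panel per gene and 1 point per array, with open points where the spot was not well above background. OSKH 4 is the highest point in all 10 panels, and it is the only filled point for Mixl1 and Mesp1.

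Of the organiser genes, Gsc encodes a homeodomain repressor of the anterior streak. Its level was -1.73 on the ESC array, -3.78, -4.98, -4.22 and 2.59 on OSKH 1 to 4, and -4.92, -5.06 and -4.22 on OSK 1 to 3. OSKH 2, OSK 1 and OSK 2 were not well above background. Every array other than OSKH 4 and ESC lay within 1.28 log2 units of one another, OSKH 4 lay 4.32 above ESC, and the OSKH and OSK groups overlapped.

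Foxa2 encodes a forkhead factor of the anterior streak, the node and the endoderm. The brighter of its probes read 0.80 on the ESC array, -2.86, -2.52, -1.24 and 4.03 on OSKH 1 to 4, and -4.40, -3.86 and -2.93 on OSK 1 to 3, of which OSK 1 was not well above background. All 4 OSKH arrays lay above all 3 OSK arrays, with OSKH 1, at -2.86, close to OSK 3. The dimmer probe read -1.53 on the ESC array, -4.79, -4.66, -3.28 and 1.75 on OSKH 1 to 4, and -6.23, -6.26 and -6.19 on OSK 1 to 3, and was well above background on ESC, OSKH 3 and OSKH 4 only. Both probes placed OSKH 4 highest, ESC next and OSKH 3 after it.

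Lhx1, which encodes a LIM-homeodomain factor needed in the organiser for head formation, was well above background on all 8 arrays. Its level was -3.21 on the ESC array, -4.04, -3.76, -3.57 and 0.33 on OSKH 1 to 4, and -3.35, -3.51 and -3.35 on OSK 1 to 3. Apart from OSKH 4 it was the flattest of the 10 genes, with a range of 0.70 over OSKH 1 to 3 and OSK 1 to 3, and OSKH 1 to 3 lay below all OSK arrays. It was the only one of the 8 tested genes with that order, which 5.95% of features shared.

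Among the streak genes, Eomes encodes a T-box factor required for definitive endoderm and for exit from the streak. Its brighter probe was measured on all arrays and read 0.49 on the ESC array, -1.60, -1.63, -0.063 and 2.53 on OSKH 1 to 4, and -2.08, -2.17 and -2.17 on OSK 1 to 3. The OSK arrays had an SD of 0.053 (n = 3), and all 4 OSKH arrays lay above them. OSKH 3 came close to ESC, 0.56 below it, and Eomes was the only one of the 8 tested genes for which the step from the second array up to OSKH 4, 2.04, was smaller than the range of OSKH 1 to 3 and OSK 1 to 3, which was 2.11. The dimmer probe, well above background on ESC, OSKH 3 and OSKH 4, read -2.56, -2.71 and -0.073 there and between -6.03 and -4.22 elsewhere.

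T, or Brachyury, encodes the founding T-box factor of streak and notochord. Its level was 0.21 on the ESC array, -2.61, -1.83, -1.50 and 3.71 on OSKH 1 to 4, and -2.68, -1.22 and -2.05 on OSK 1 to 3, all well above background. OSKH 1 to 3 and OSK 1 to 3 had almost the same mean, with a difference of 0.0011. Evx1, which encodes a homeodomain factor of the posterior streak, read -3.08 on the ESC array, -4.58, -5.17, -4.27 and 0.21 on OSKH 1 to 4, and -5.49, -3.88 and -6.33 on OSK 1 to 3. Only ESC, OSKH 3 and OSKH 4 were well above background, so no OSK array had a measured level of Evx1.

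Mixl1 encodes a homeodomain factor of streak cells, and Mesp1 a basic helix-loop-helix factor of the earliest cardiac mesoderm. Mixl1 read -6.43 on the ESC array, -6.57, -6.57, -6.90 and -0.80 on OSKH 1 to 4, and -6.29, -5.97 and -6.62 on OSK 1 to 3. Mesp1 read -5.55 on the ESC array, -5.43, -5.69, -6.89 and -3.43 on OSKH 1 to 4, and -5.34, -5.23 and -6.16 on OSK 1 to 3. For both genes the other 7 arrays were not well above background, and their order has no meaning. Of 14294 untested features, 245, or 1.71%, were likewise well above background on OSKH 4 alone.

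Sp5 encodes a zinc-finger factor that is a direct target of Wnt signalling. Its level, measured on all arrays, was -0.055 on the ESC array, -2.10, -2.43, -1.24 and 3.78 on OSKH 1 to 4, and -1.72, -1.36 and -2.57 on OSK 1 to 3. Cyp26a1, which clears retinoic acid from the posterior embryo and is itself induced by retinoic acid, read -1.88 on the ESC array, -4.03, -4.52, -3.90 and 2.65 on OSKH 1 to 4, and -4.72, -3.76 and -4.58 on OSK 1 to 3. ESC, OSKH 1, OSKH 3 and OSKH 4 were well above background for Cyp26a1, and no OSK array was. For both genes OSKH 1 to 3 overlapped the OSK arrays.

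The series asks whether iPSCs made with the additional factor differ from OSK iPSCs. The mean OSKH minus OSK difference was above 0 for the 8 tested genes, while its median over all tested features was -0.013. It was 3.08 for Foxa2 (SE 1.64, limma, with OSK measured on 2 of 3 arrays), 2.13 for Gsc (SE 1.78, with OSKH measured on 3 of 4 and OSK on 1 of 3 arrays) and 1.95 for Eomes (SE 0.99). T differed by 1.42 (SE 1.49), Sp5 by 1.39 (SE 1.49) and Lhx1 by 0.64 (SE 1.05). Evx1 and Cyp26a1 had no measured OSK level. With dim OSK arrays raised to the lowest well-above-background signal and dim OSKH arrays at their own, OSKH was 1.99-fold and 3.50-fold higher. OSKH was measured on 2 of 4 arrays for Evx1 and on 3 of 4 for Cyp26a1, so these ratios are not strict minima. For Mixl1 and Mesp1, measured on OSKH 4 alone, no mean difference is given. The standard errors are of the size of the differences because 1 of the 4 OSKH arrays lay far above the rest, with an SD over the OSKH arrays (n = 4) of 3.19 for Foxa2, 2.90 for Sp5 and 2.07 for Lhx1.

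In limma with Benjamini-Hochberg adjustment over all 22685 features at a threshold of 0.05, no feature was called higher (0%) or lower (0%) in OSKH than in OSK, with 0.463 as the lowest adjusted p. Before adjustment, 724 features (3.19%) were higher and 746 (3.29%) lower at p under 0.05. The OSKH and OSK arrays did not overlap for 2 of the 8 tested genes, Foxa2 and Eomes, as for 3.15% of all features in the same direction. With another background correction (normexp, on median signals, with quantile scaling) the difference for Gsc was 1.33 in place of 2.13, with 2 of 3 OSK arrays and 1 of 4 OSKH arrays not well above background. For Cyp26a1 it was 1.22 in place of 1.90 and for Evx1 0.76 in place of 1.78, with no OSK array well above background.

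Without OSKH 4, the difference was near 0 for T and Sp5 and below 0 for Lhx1. The mean of OSKH 1 to 3 minus that of OSK was 1.52 for Foxa2 and 1.04 for Eomes, and both had all 3 OSKH arrays above all OSK arrays, as did 5.69% of features. It was 0.0011 for T, -0.039 for Sp5 and -0.39 for Lhx1. For Gsc it was 0.40, with OSKH 1 to 3 measured on 2 of 3 arrays and OSK on 1 of 3. No value is given for Evx1, Cyp26a1, Mixl1 and Mesp1, which no OSK array measured. Foxa2 and Eomes were thus higher than in OSK on more than 1 OSKH array, and for both OSKH 3 was the highest of OSKH 1 to 3. For Foxa2 the margin was narrow, with -2.86 on OSKH 1 and -2.93 on OSK 3. Here OSKH 1 to 3 lay in slide row 1 and OSK in slide row 2, so group and row cannot be told apart.

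Within slide row 2, OSKH 4 was set directly against the 3 OSK arrays. OSKH 4 lay above all 3 for 10 of 10 genes, as for 24.6% of features, and the median difference over all features was -0.038 log2 units. Foxa2 was 215.5-fold higher on OSKH 4, with OSK measured on 2 of 3 arrays, and Gsc at least 120.0-fold, with OSK measured on 1 of 3. T was higher 51.8-fold, Sp5 50.7-fold, Eomes 25.5-fold and Lhx1 13.3-fold. For genes that none of the OSK arrays measured, the excess was at least 119.9-fold for Cyp26a1, at least 25.2-fold for Evx1, at least 13.8-fold for Mixl1 and at least 2.24-fold for Mesp1. These ratios compare 1 array with 3 and carry no replicate check of OSKH 4.

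Where the slide row entered limma as a block, the OSKH minus OSK contrast rested on these 4 arrays, with 4 residual degrees of freedom and the lone OSKH 4 array assumed to vary like the others. It called 38 features higher (0.168%) and 9 lower (0.0397%). The 10 genes were chosen with this contrast known, so it is no test of them.

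**Figure D2:**
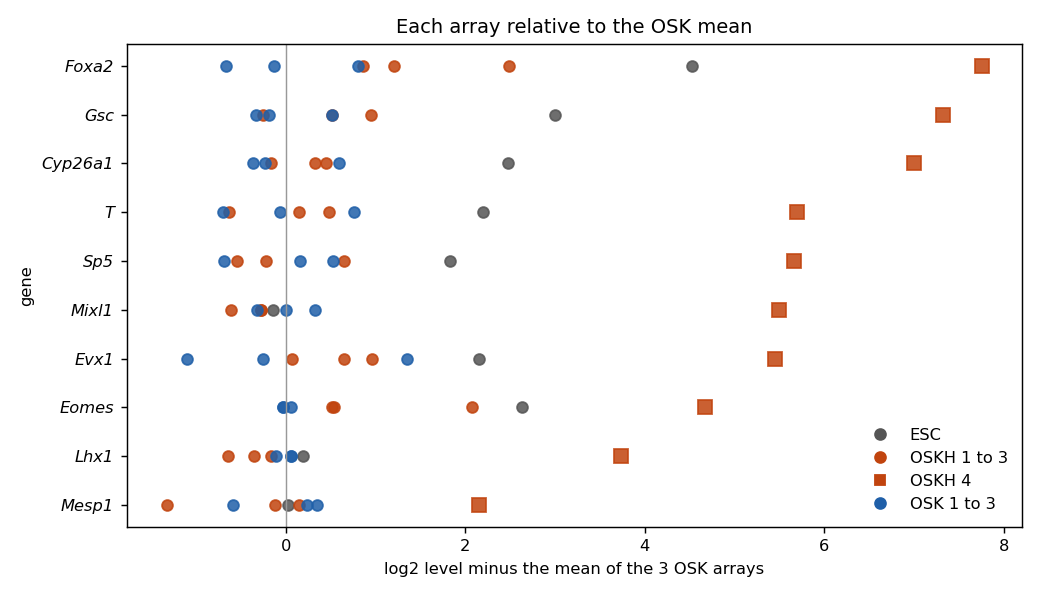
Each array's level minus the mean of the 3 OSK arrays (x axis, log2 units) for the 10 genes (y axis), ordered by OSKH 4, with squares for OSKH 4 and circles for the other arrays. OSKH 4 lies between 3.74 and 7.75 above the OSK mean for the 8 tested genes, and ESC lies above the remaining arrays for them. OSKH 1 to 3 lie above the OSK arrays for Foxa2 and Eomes and below them for Lhx1, and Mixl1 and Mesp1 were measured on OSKH 4 alone, so their other points have no order.

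The ESC array shows the level of these genes in the reference line. It measured 8 of the 10 genes, and these lay above all 3 OSK arrays, as did 35.6% of features, and above OSKH 1 to 3, which share its slide row, as did 29.9% of features. The ESC minus OSK difference was 4.53 for Foxa2 (SE 2.49, OSK measured on 2 of 3 arrays), 2.64 for Eomes (SE 1.50), 2.20 for T (SE 2.25) and 1.83 for Sp5 (SE 2.25), and 0.20 for Lhx1 (SE 1.59). Gsc, with OSK measured on 1 of 3 arrays, was at least 6.01-fold higher on ESC than in OSK, Cyp26a1 at least 5.20-fold and Evx1 at least 2.58-fold. No feature was called in either direction between ESC and OSK (0%) or between ESC and OSKH (0%) by limma. With normexp the ESC minus OSK difference of Gsc was 1.27 in place of 3.00, both against OSK arrays of which 2 of 3 were not well above background. That of Cyp26a1 was 0.98 in place of 2.47 and that of Evx1 0.61 in place of 2.16. The fold bounds for these genes thus hold for the main background correction only.

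Within row 1, ESC exceeded the mean of OSKH 1 to 3 by 3.01 for Foxa2, 2.20 for T, 1.87 for Sp5, 1.59 for Eomes and 0.58 for Lhx1. It exceeded it by at least 2.48 for Gsc and at least 2.27 for Cyp26a1, both measured on 2 of these 3 OSKH arrays, and by at least 1.41 for Evx1, measured on 1 of them. OSKH 4 in turn lay above ESC for all 10 genes, by 2.04 for Eomes up to 4.53 for Cyp26a1 among the 8 genes that ESC measured. ESC and OSKH 4 were thus set apart from the other 6 arrays by different amounts. For ESC, the distance above the highest of the other 6 arrays exceeded their range for 2 of the 8 tested genes, Gsc and Cyp26a1, and for OSKH 4 the distance above the next array exceeded it for 7 of 8, all but Eomes.

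The number of genes well above background differed between arrays in the same way. OSKH 4 had all 10 and ESC had 8. OSKH 1 to 3 had 7, 5 and 8, and OSK 1 to 3 had 4, 5 and 6. Eomes, T, Lhx1 and Sp5 were measured on every array, so the counts differ through Gsc, Foxa2, Evx1, Cyp26a1, Mixl1 and Mesp1.

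Ranked among all tested features by the distance of OSKH 4 above the next array, Cyp26a1 (4.53) came at rank 1, Gsc (4.32) at rank 2, Sp5 (3.84) at rank 8, Lhx1 (3.54) at rank 12, T (3.50) at rank 15, Evx1 (3.29) at rank 17, Foxa2 (3.22) at rank 20 and Eomes (2.04) at rank 49. The next array was ESC, with a measured level, in all 8 cases. The genes differed in what ESC did: Lhx1 was only 0.14 above the highest of the other 6 arrays on ESC, while Gsc and Foxa2 were 2.05 above it.

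The mean profile of the 8 tested genes, each centred on its own mean over the 8 arrays with dim spots at their own signal, was 1.19 on ESC, -0.96, -1.11, -0.26 and 4.72 on OSKH 1 to 4, and -1.43, -0.86 and -1.28 on OSK 1 to 3. Sp5 and T followed it most closely, with a root mean square difference of 0.35 and 0.37 log2 units over the 8 arrays, and Foxa2 and Lhx1 least, with 0.91 and 0.88. Among 285 features with an SD of at least 1 over the arrays, the 8 other named genes with the most similar profile were Flt1 (0.376), Rspo3 (0.548), Zfp703 (0.550), F5 (0.595), Piezo2 (0.603), Dgkk (0.678), Rbfox1 (0.679) and Jaml (0.721). Flt1, a receptor for vascular endothelial growth factor, read -0.72 on the ESC array, -2.65, -2.36, -1.12 and 3.25 on OSKH 1 to 4, and -2.95, -2.49 and -2.05 on OSK 1 to 3. Rspo3, a secreted enhancer of Wnt signalling, read 0.51 on OSKH 4 and -4.60, -4.12 and -4.68 on OSK 1 to 3. It was well above background on 3 arrays only, so no difference to the OSK mean is given for it. Flt1, Zfp703 and Dgkk were measured on all 8 arrays.

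**Figure D3:**
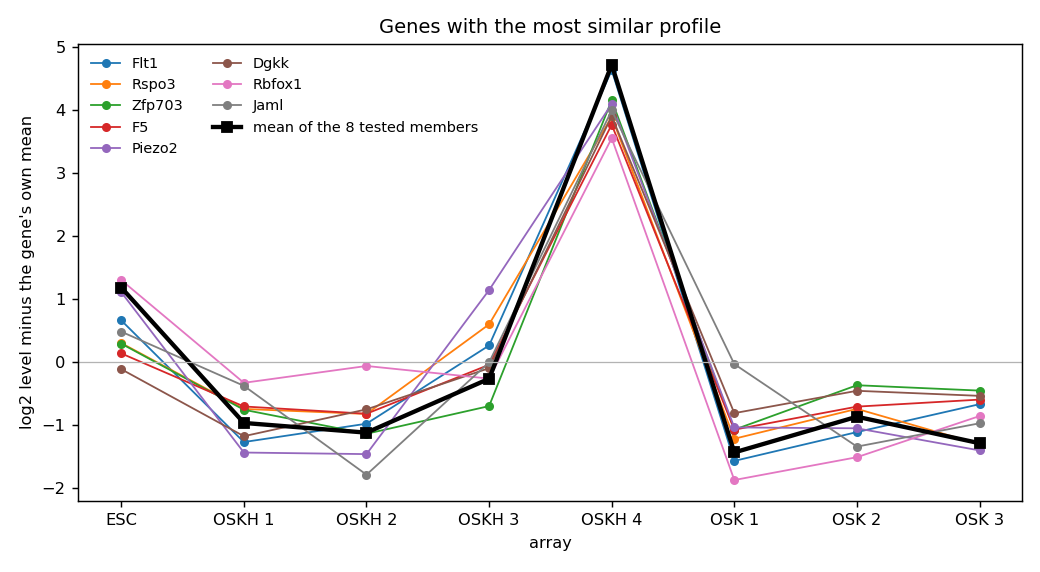
Profiles over the 8 arrays (x axis) as log2 level minus the gene's own mean (y axis), for the 8 named genes most like the set and, in black, the mean of the 8 tested genes of the set. All peak on OSKH 4, where the black line reaches 4.72.

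Other genes of the same developmental steps were described from fixed lists that leave out the 10 genes. Over all features 46.3% were higher in OSKH than in OSK, 43.4% were higher on OSKH 4 than in OSK within row 2, and 48.3% were higher in OSKH 1 to 3 than in OSK. In limma without slide row as a block, no gene of any list was called in the 3 comparisons between groups. The counts include genes that were not well above background on some arrays, and differences within row 2 set the lone OSKH 4 against 3 OSK arrays with no test.

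Of 28 other primitive streak and mesoderm genes, 15 were tested, and 11 were higher in OSKH than in OSK, with a median difference of 0.20. Without OSKH 4, 6 of 15 were higher and the median was -0.086. The largest differences were those of Bmp4 (1.20), a ligand that induces posterior streak, Snai1 (0.91), the repressor of E-cadherin at the streak, and Fgf8 (0.79), which drives migration from it. OSKH 4 was the highest array for 9 of 15. Within row 2 the median was 0.76, and Aplnr, the receptor for apelin and Elabela in mesendoderm, named after its value was seen, was 3.55 higher on OSKH 4 than in OSK, which was measured on 2 of 3 arrays.

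Of 25 other organiser, node and definitive endoderm genes, 19 were tested, and 14 were higher in OSKH, with a median of 0.16. Without OSKH 4, 9 of 19 were higher and the median was -0.013. The largest differences were those of the activin antagonist Fst (1.84), the anterior homeobox gene Otx2 (1.49) and the forebrain repressor Hesx1 (1.28). Fst differed from most of the 10 genes in its order: it read 1.91, 1.41, 2.69 and 3.07 on OSKH 1 to 4, all above its 0.11, 0.32 and 0.86 on OSK 1 to 3. OSKH 4 was the highest array for 10 of 19, and Foxj1, the ciliogenesis factor of the node, named after its value was seen, was 3.08 higher on OSKH 4 than in OSK.

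Several organiser and endoderm genes were too dim to test and were seen mainly on OSKH 4, as noticed after their values were seen. Cer1, a secreted Nodal, Wnt and BMP antagonist of anterior endoderm, read 2.54 on OSKH 4 and -2.50 on ESC and was not well above background on any other array, which put OSKH 4 at least 140.2-fold above OSK. Dkk1, a Wnt antagonist, was at least 60.1-fold above OSK on OSKH 4, and Sox17, a defining factor of endoderm, at least 38.9-fold, and both were well above background on OSKH 4 alone. Gata6, well above background on ESC and OSKH 4, was at least 46.3-fold above OSK on OSKH 4. Not every gene of these steps was seen there: Msgn1, Noto, Wnt3a and Hand1 were not well above background on any array.

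All 21 genes of the Nodal pathway list were tested and well above background on all 8 arrays. In this list 9 were higher in OSKH than in OSK and the median difference was -0.059. Without OSKH 4 the count was 6 and the median -0.072. Nodal itself, the ligand, read 3.73 on the ESC array, 3.47, 3.99, 4.33 and 3.96 on OSKH 1 to 4, and 4.07, 4.03 and 4.02 on OSK 1 to 3, with OSKH 4 inside the range of the other arrays. The largest differences were those of Cfc1 (2.30), the Cryptic co-receptor of Nodal, Nomo1 (-0.30) and the Nodal-related ligand Gdf3 (-0.29). Cfc1 was 5.61 higher on OSKH 4 than in OSK, and OSKH 4 was the highest array for 4 of 21.

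Of 20 Wnt pathway targets, 18 were tested and 14 were higher in OSKH, with a median of 0.22. Without OSKH 4, 10 of 18 were higher and the median was 0.011. Rnf43, a ubiquitin ligase that removes Wnt receptors, differed by 0.94 (OSK measured on 2 of 3 arrays), the receptor gene Tnfrsf19 by 0.60 and Myc by -0.56. OSKH 4 was the highest array for 9 of 18, and within row 2 the median was 0.92 and 12 of 18 were higher on OSKH 4. Axin2, the feedback inhibitor named after its value was seen, was 1.71 higher on OSKH 4 than in OSK.

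Of 17 retinoic acid genes, 15 were tested and 6 were higher in OSKH, with a median of -0.13, and without OSKH 4 the count was 3 and the median -0.35. Stra8, a retinoic acid target of the germline, had the largest difference at -1.63, followed by the binding protein gene Crabp1 at 0.61. On OSKH 4 these genes did not go one way. Within row 2 the median was 0.19, 10 of 15 were higher on OSKH 4, and OSKH 4 was the highest array for 6 of 15.

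**Figure D4:**
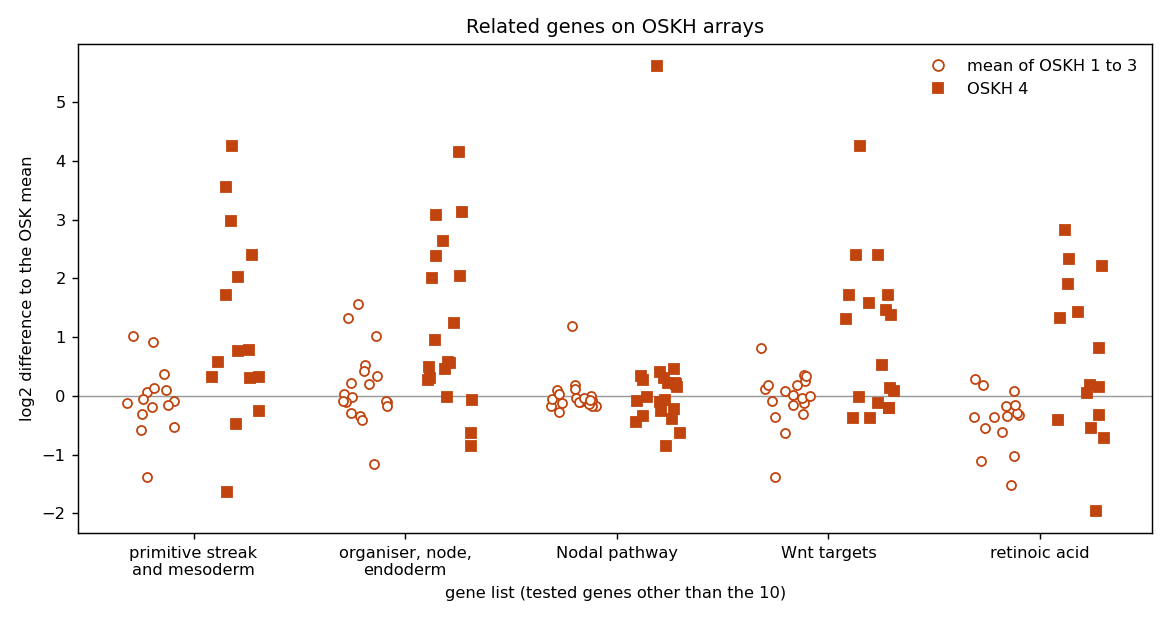
Differences to the OSK mean (y axis, log2 units) of the tested genes of 5 related lists (x axis), with open circles for the mean of OSKH 1 to 3 and squares for OSKH 4, and the 10 genes of the set left out. The squares of the streak, organiser, Wnt and retinoic acid lists reach further up than the circles, with medians of 0.76, 0.58, 0.92 and 0.19. Those of the Nodal list have a median of -0.020 and run from -0.86 (Lefty1) to 0.45 (Furin), with Cfc1 apart at 5.61.

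Markers of other cell types were followed on the same arrays, and their part in the levels of the 10 genes was not tested. The summed signal of 9 fibroblast and feeder markers was 22.9 on ESC and 24.4 on OSKH 4, in multiples of the 75th percentile, against 8.49 to 13.4 on OSKH 1 to 3 and 5.43 to 10.4 on OSK, with 8 of 9 well above background on ESC and on OSKH 4. All 7 tested members were higher in OSKH than in OSK (6 of 7 without OSKH 4), with Col3a1 at 1.12 (OSK measured on 2 of 3 arrays). Postn, a matrix protein gene that none of the OSK arrays measured, was higher on OSKH 4 than in OSK by at least 6.39-fold. The collagen gene Col1a1, named after its value was seen, read 1.34 on ESC, 1.72 on OSKH 4 and between -1.86 and -1.01 on the other arrays. Thy1 of the same list had another order, with 3.44 on OSKH 3, its highest array. It read 2.69 on ESC, 2.50 on OSKH 4 and 2.51 on OSK 3. ESC and OSKH 4, the arrays with the highest levels of 8 of the 10 genes, were also those with the most fibroblast marker signal in sum.

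The 7 definitive endoderm markers summed to 12.6 on OSKH 4 and to between 1.03 and 1.38 on every other array, ESC included, with all 7 well above background on OSKH 4. The 4 tested ones were all higher in OSKH (2 of 4 without OSKH 4), with Cxcr4 at 0.76 (OSK measured on 1 of 3 arrays) and Foxa3 at 0.53. The trophectoderm and trophoblast markers summed to 74.4 on OSKH 4 and to between 23.8 and 35.1 elsewhere, and the keratin Krt18 alone gave 48.4 of the sum on OSKH 4. Without its 3 keratins, the 4 other tested markers summed to 16.2 on OSKH 4, below 23.0 on OSKH 1 and within the range of 8.75 to 23.0 on the other arrays. Of these 4, Tfap2c was the brightest on OSKH 4, at 3.62, and lay 0.38 above the OSK mean. The trophoblast factor Ascl2 read 1.35 on OSKH 4, a difference of -0.38 to the OSK mean. Cdx2 was highest on OSKH 4, at least 15.5-fold above OSK, which was measured on 2 of 3 arrays. Gata3 was 1.28 above the OSK mean on OSKH 4, with OSK measured on 1 of 3 arrays. These genes were named after their values were seen. All 7 tested markers of the list were higher in OSKH (6 of 7 without OSKH 4). Krt8 (1.18) and Krt7 (1.01), keratins of simple epithelia found also outside trophoblast, had the largest differences. Krt8 was 3.59 higher on OSKH 4 than in OSK, while the trophoblast genes Hand1 and Elf5 were not well above background on any array.

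The primitive and visceral endoderm markers summed to 1.69 on OSKH 4 and 0.82 to 1.34 elsewhere. Sox17 and Gata6, at 0.69 and 0.95 on OSKH 4, were counted in the definitive endoderm list and not in this one. The sums of the endoderm lists therefore depend on where such genes were placed. Afp, Ttr and Apoa1 were not well above background on any array. Gata4 and Pdgfra, too dim to test and named after their values were seen, were highest on OSKH 4. Gata4 read -0.77 there and was otherwise well above background on OSK 3 only. Pdgfra, well above background on ESC and OSKH 4, was at least 4.24-fold above OSK on OSKH 4. Of the 4 tested markers of this list 3 were higher in OSKH (3 without OSKH 4). Sox7 (0.59, OSK measured on 1 of 3 arrays) and Dab2 (0.38) had the largest differences. Neural markers summed to between 12.5 and 17.2, with OSKH 4 between the lowest and the highest of the other arrays, and 1 of 7 tested was higher in OSKH (1 without OSKH 4), with Sox1 at -1.25 and Neurod1 at -1.24. Of 12 pluripotency markers 9 were higher in OSKH (10 without OSKH 4), with Nanog at 0.54 and Klf2 at 0.47.

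**Figure D5:**
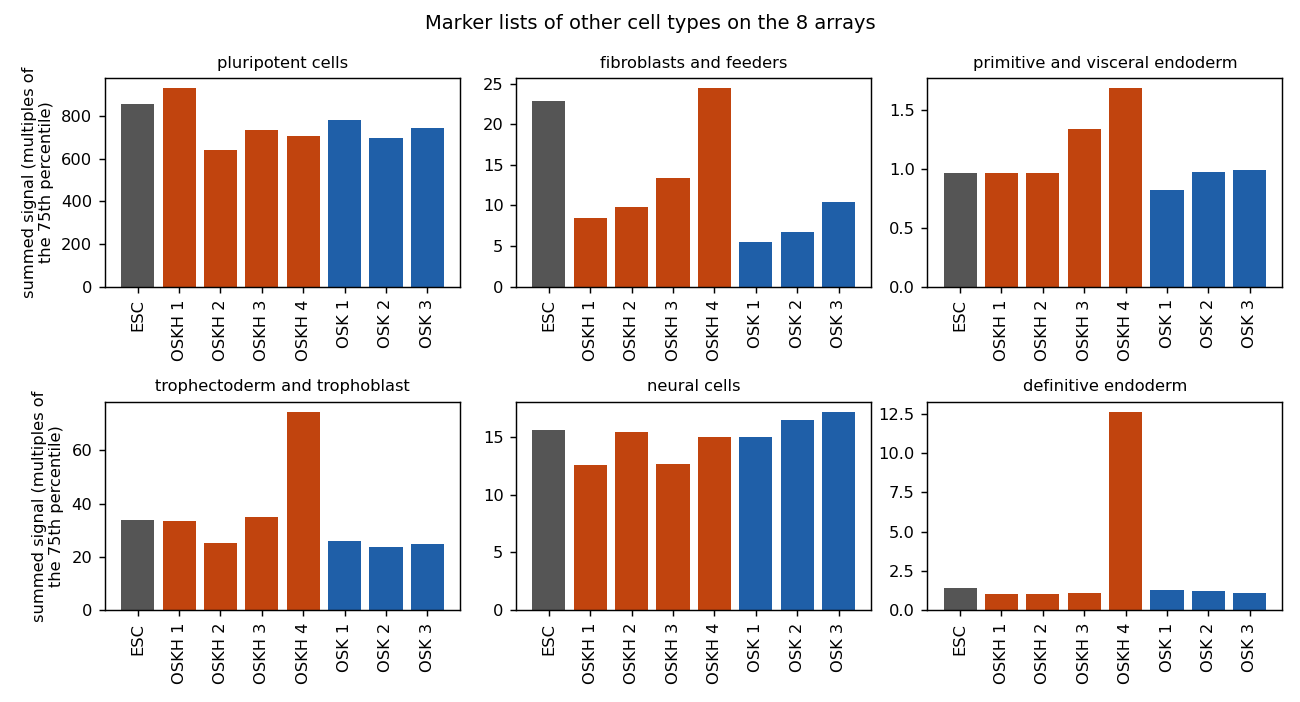
Summed signal of 6 marker lists on each array (y axis, multiples of the 75th percentile of the array, bars from 0, a separate scale in each panel). OSKH 4 has the tallest bar for definitive endoderm (12.6), primitive and visceral endoderm (1.69) and trophectoderm (74.4, of which 58.1 are keratins). ESC and OSKH 4 have the tallest for fibroblasts and feeders (22.9 and 24.4), and the pluripotent list lies between 639 and 931.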

How the data were processed

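Per the labels, total RNA was labelled with Cy3 on one-colour Agilent arrays. Per the file headers, Agilent Feature Extraction 11.5.1.1 made the deposited intensity values by subtracting background and removing the spatial trend of each array, with no scaling between arrays. The deposited flags, per the file headers, take 0 or 1 and include well above background. The authors' deposited log2 table differed from the log2 of these signals by a constant in each array (100% of probes within 0.01), with column medians of -3.71 to -3.60, and its software is not given in the sources used. Per the file headers, the probe annotation refers to mm9.

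Control spots and outlier-flagged spots were left out (59305 spots used), spots of a probe were averaged, and 55667 probes were kept. The value was log2 signal minus the array's 75th percentile (424 to 501 signal units). RefSeq accessions named 27650 probes through a GRCm38.p6 table, and 28017 kept their file identifier. A feature needed 3 or more of the 8 arrays well above background, and a gene's brightest probe was used, which left 22685 features, 14390 of them named genes. Groups came from the sample titles.

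The groups were compared in limma 3.58.1 (R 4.3.3, lmFit and eBayes, 5 residual and 1.85 prior degrees of freedom) with Benjamini-Hochberg adjustment over all features. ESC comparisons assume that ESC arrays vary like iPSC arrays. For fold bounds, a dim array counted at its lowest well-above-background signal, or at the probe's signal where that was higher. In the OSKH over OSK ratios of Evx1 and Cyp26a1 this was done for the OSK arrays only. The bounds apply to the main background correction and not to normexp, which was run with an offset of 50 signal units. The number of arrays limits the precision. Tested on simulated data for OSKH minus OSK with 22685 features, of which 200 were altered, the fit recovered 61% of 2-fold and 88% of 4-fold differences with 6 false calls among 155. The simulation shifted every OSKH array alike and added independent normal noise. Its shares therefore do not hold for a difference carried by OSKH 4 alone. The normexp alternative used median spot signals, the foreground column used in the files, where mean signals had been planned.

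Deviations of same-numbered OSKH and OSK arrays correlated at 0.465, 0.259 and 0.450, each best with its own number, and same-numbered arrays shared a slide column, so the numbers were treated as pairs in an alternative. The 10 genes, the gene lists and the markers were chosen with earlier results of these data known. Beyond the 10, up to 3 tested genes per list (2 per marker list) with the largest absolute OSKH minus OSK difference were named, and the 8 genes with the smallest root mean square profile difference. A gene that this rule names is not reported here. Other alternatives were quantile scaling, the deposited table, no filter, a filter on all 8 arrays, the mean over probes, slide row as a block, and leaving out each iPSC array.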

Additional observations from a re-analysis of the deposited data

Results flagged for a closer look

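On the 4 OSKH arrays, the distance from OSKH 4 to the nearest other array took up most of the whole range for 5 of the 10 genes, above Dixon's critical value for 4 samples. The share of the range was 0.946 for Mixl1, 0.914 for Cyp26a1, 0.892 for Lhx1, 0.842 for Gsc and 0.833 for Evx1, and T lay just under the critical value at 0.824. OSKH 4 was the high array in each case. The other 3 OSKH arrays were not well above background for Mixl1, nor OSKH 1 and 2 for Evx1, nor OSKH 2 for Gsc and Cyp26a1, so for these genes the ratios rest partly on unmeasured levels, and Lhx1 alone of the 5 was measured on all 4. Among all 22685 features 7.11% were set apart in this way on some OSKH array, and 138 (0.608%) with OSKH 4 as the high one. Chance alone sets about 1 in 20 groups apart. The genes were chosen with the level of OSKH 4 known, so these shares are a description and no test.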

How the results depend on the processing

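The counts of features called were 0 for OSKH minus OSK, ESC minus OSKH and ESC minus OSK in limma, with 1470, 990 and 1365 features at an unadjusted p under 0.05. Leaving out each iPSC array in turn gave 0 to 0 calls in all 3 comparisons. Without the filter on dim probes ESC minus OSKH had 11 calls and ESC minus OSK 9. With slide row as a block OSKH minus OSK had 47 calls and ESC minus OSK 38, the latter being the sum of the row 1 and row 2 contrasts, since no row holds both groups. The other scalings, probe choices and filters gave 0 calls. Array number as a replicate block, over OSKH 1 to 3 and OSK 1 to 3 only, gave 0 calls for OSKH minus OSK (2326 at an unadjusted p under 0.05) and changed no other call. The OSKH minus OSK difference of Lhx1 and Sp5 was below 0 without OSKH 4, as it was for Mixl1 and Mesp1, whose remaining arrays were all below background and give no order. Counts of list genes without OSKH 4 were chosen after seeing the data. Depth of signal limits Mixl1, Mesp1, Evx1, Cyp26a1 and Gsc, whose OSK levels lay at or near background.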

Other observations

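Some genes of the same lists had their highest level on OSKH 1 and not on OSKH 4. Of the 15 tested streak and mesoderm genes, 5 did so, namely Mesp2, Snai1, Tbx3, Bmp4 and Dll1. Tbx3, a T-box gene also active in naive pluripotent cells, read 3.95 on OSKH 1, 0.57, 1.35 and 2.36 on OSKH 2 to 4, and 1.84, 1.64 and 1.26 on OSK 1 to 3, with 2.04 on ESC. Dll1, a Notch ligand, read 0.34 on OSKH 1 and -2.43 on OSKH 4, its lowest array. Of the 12 pluripotency markers, 8 were highest on OSKH 1 as well. Cdx2, a caudal gene of streak and trophectoderm, read 0.23 on OSKH 4 and was not well above background on OSKH 1, at -5.99. Hoxb1, a retinoic acid target of the hindbrain, read -1.53 on OSKH 4 and -2.83 on OSK 2. On ESC, at -6.21, Hoxb1 was not well above background.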
